A study of Mus musculus with 153 samples.

Results

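The 8 genes described here, Pvalb, Syt2, Kcnc1, Kcnc2, Cplx1, Tac1, Nefh and Pthlh, are known from hippocampal fast-spiking basket cells and related parvalbumin interneurons. They were chosen by name as parvalbumin and fast-spiking genes, with earlier results of these data known. They make up 8 of the 22654 genes listed in all 6 count tables of the series. RNA came from the dorsal hippocampus of mice of 3 genotypes, Pvalb.Cre/TRAPfl, Sst.Cre/TRAPfl and Camk2a.Cre/TRAPfl, called the Pvalb, Sst and Camk2a lines below. Each joins a Cre driver to a floxed TRAP allele, so that ribosomes carry a tag in cells with a history of Cre activity and can be purified together with their mRNA. The drivers follow the Pvalb, Sst and Camk2a genes, and Pvalb is therefore both a member and the gene of a driver. The purified, ribosome-bound fraction and the total lysate of all cells were sequenced for mice that were shocked (shock), placed in the new context without a shock (box) or left in the home cage, in sets labelled 15 min and 60 min. All mice of a line, home cage mice included, carried both alleles.

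Fast-spiking interneurons fire long trains of brief action potentials and release GABA onto cell bodies with little delay. Potassium channels of the Kcnc family open at high voltage and close fast, which shortens each spike, while the calcium buffer parvalbumin and the release proteins synaptotagmin 2 and complexin 1 act in the terminal. Neurofilaments support the large, often myelinated axons of these cells. Tac1 encodes the precursor of substance P, and Pthlh encodes parathyroid hormone-related protein, a secreted peptide.

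In GRCm38 the members lie at chr15:78191114-78206400 (Pvalb, - strand), chr1:134646677-134762593 (Syt2, + strand), chr5:108518554-108550024 (Cplx1, - strand), chr6:7554879-7565834 (Tac1, + strand), chr11:4938754-4948064 (Nefh, - strand), chr6:147252101-147264183 (Pthlh, - strand), chr7:46396497-46438704 (Kcnc1, + strand) and chr10:112271121-112467024 (Kcnc2, + strand). All are annotated as protein coding. Syt2 overlaps Ppp1r12b, and the libraries do not mark the strand, so reads in the overlap cannot be told apart between the genes. Kcnc1 and Kcnc2 encode close relatives, and the sources used here do not say how reads that match both genes were counted.

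The 151 libraries analysed fell into 36 groups of 3 to 6 and held 9043042 to 397228206 counts. Some libraries stood apart. In the purified Sst line at 15 min the library labelled home cage replicate 2 goes against its label, with 1378 CPM of Pvalb (CPM being counts-per-million values) and 204.8 CPM of Sst, while the other 3 home cage libraries had 222.8 to 492.4 CPM of Pvalb and 1062 to 3024 CPM of Sst. In the same set shock replicates 4 and 5 had 41.8 and 54.7 CPM of Sst and box replicate 2 had 121.7 CPM. The lysates labelled box replicate 2, home cage replicate 2 and shock replicate 5 there had 292.2, 279.1 and 278.7 CPM of Sst, and the other 9 had 102.7 to 154.4 CPM, so that the 2 shock libraries lay below every lysate and box replicate 2 within their range. In the purified Sst line at 60 min the 4 libraries labelled shock had 2.98, 116.2, 155.0 and 5.28 CPM of Sst, below the 1081 to 4958 CPM of the box libraries and the 242.4 to 3535 CPM of the home cage libraries. The lysates labelled shock in that set had 0.333, 279.1, 56.3 and 0.386 CPM of Sst, against 78.04 to 172.3 CPM in the box lysates and 52.8 to 148.2 CPM in the home cage lysates, so that replicates 1 and 4 were near 0 in both fractions. Box replicate 1 and home cage replicates 4 and 5 of that set differed in depth. Their purified libraries held 3.55e+08, 3.97e+08 and 2.91e+08 counts, against 5.45e+07 to 9.44e+07 in the others. Their lysates had 59.1, 56.8 and 66.4 CPM of Nefh, against 14.8 to 31.3 CPM in the others. No library labelled shock was among them, and their part as a set in the comparisons below was not tested. In the Pvalb line every purified library had more Pvalb mRNA than every lysate of the line in both sets, as the next paragraphs show. Shock replicates 2 and 3 at 15 min were the lowest of these purified libraries. They had 238.1 and 280.8 CPM of Pvalb, against 581.2 to 902.8 CPM in the home cage libraries of that set.

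In both sets each of the 8 members had its highest mean level in the ribosome-bound RNA of the Pvalb line, a lower one in that of the Sst line and the lowest in that of the Camk2a line. In these bulk samples, fewer cells of a type and less RNA per cell cannot be told apart. Parvalbumin mRNA ranged over 238.1 to 1154 CPM in the 13 purified Pvalb libraries at 15 min (median 702.2) and over 612.0 to 1103 CPM in the 16 at 60 min (median 815.7). In the purified Sst line it ranged from 12.4 to 1378 CPM at 15 min (median 214.6) and from 18.5 to 339.0 CPM at 60 min (median 118.8), and in the purified Camk2a line from 5.26 to 28.2 CPM (median 7.49) and from 2.79 to 13.5 CPM (median 5.29). Purified Pvalb and Camk2a libraries did not overlap in either set, and the Sst libraries spanned the gap between them at 15 min.

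The release proteins differed in how far their levels separated the lines. Syt2, the fast calcium sensor of vesicle fusion, averaged 27.1 ± 5.5 CPM (SD, n = 16) in the purified Pvalb line at 60 min, 4.42 ± 2.1 CPM (n = 13) in the purified Sst line and 2.58 ± 1.0 CPM (n = 12) in the purified Camk2a line. At 15 min the means were 19.7 ± 8.5 CPM (n = 13), 5.66 ± 7.1 CPM (n = 12) and 2.83 ± 1.5 CPM (n = 10). Cplx1, whose product clamps and primes the fusion machinery, averaged 2126 ± 516 CPM at 60 min in the purified Pvalb line, 944.2 ± 431.9 CPM in the purified Sst line and 435.1 ± 72.0 CPM in the purified Camk2a line. In the lysates of the Camk2a line Syt2 averaged 3.75 ± 1.8 CPM and Cplx1 544.4 ± 88.7 CPM at 60 min (n = 12), so both genes had purified levels near those of the lysate.

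The channel genes showed the same order. Kcnc1 averaged 231.3 ± 42.7 CPM at 60 min in the purified Pvalb line, 76.4 ± 20.1 CPM in the purified Sst line and 39.4 ± 8.1 CPM in the purified Camk2a line. Kcnc2 averaged 765.0 ± 277.8 CPM in the purified Pvalb line, 147.4 ± 117.4 CPM in the purified Sst line and 56.5 ± 17.4 CPM in the purified Camk2a line. The spread of Kcnc2 within the Sst line, from 34.8 to 333.8 CPM, reached the range of the Camk2a line.

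The peptide genes were low in the excitatory line. Tac1 averaged 369.1 ± 103.5 CPM at 60 min in the purified Pvalb line, 71.7 ± 67.5 CPM in the purified Sst line and 2.02 ± 1.1 CPM in the purified Camk2a line. Pthlh averaged 80.1 ± 15.3, 6.59 ± 3.4 and 0.467 ± 0.80 CPM in the same order. At 15 min Tac1 averaged 7.18 ± 5.6 CPM and Pthlh 0.513 ± 0.55 CPM in the purified Camk2a line (n = 10). Pthlh had 0 counts in 7 of the 12 purified Camk2a libraries at 60 min and in 3 of 10 at 15 min, which by 3 counts per library allows up to 0.0864 and 0.332 CPM in the smallest of these libraries, for counting error only. Nefh, the heavy neurofilament subunit, averaged 245.6 ± 47.0 CPM in the purified Pvalb line, 110.4 ± 45.6 CPM in the purified Sst line and 28.2 ± 8.8 CPM in the purified Camk2a line.

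**Figure D1:**
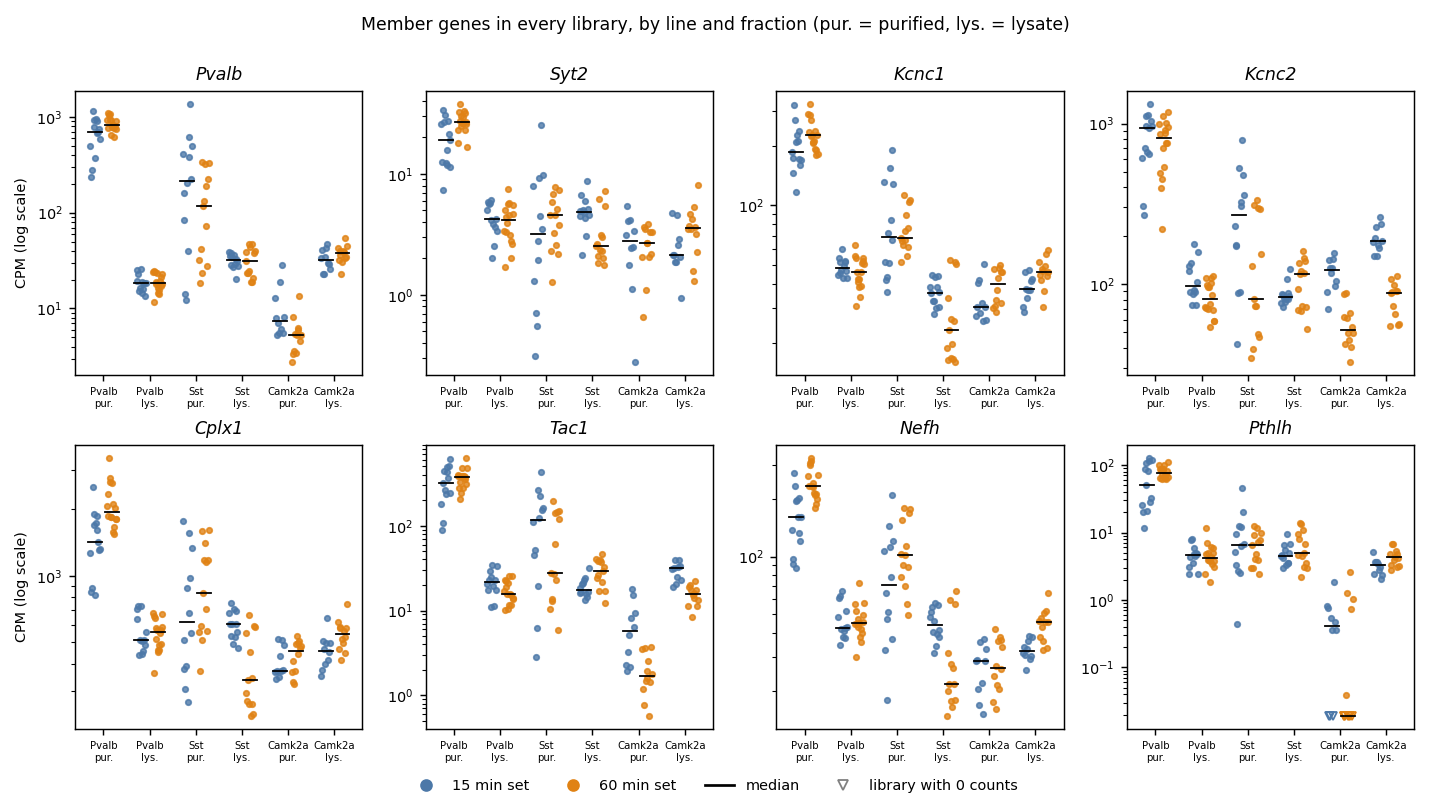
CPM of each gene on a log scale in every library, by line (Pvalb, Sst, Camk2a) and fraction (purified beside lysate), with 15 min and 60 min sets in different colours, medians as bars and libraries without counts as open triangles. The medians of purified Pvalb libraries are the highest for all 8 genes; for Pvalb these libraries start at 238.1 CPM, while the lysates of that line end at 25.8 CPM.

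Levels of different genes were compared per length, as RPKM, CPM per kilobase of exon, in the purified home cage libraries of the Pvalb line. At 60 min (n = 6) Cplx1 had 794 ± 84 RPKM and Pvalb 744 ± 94 RPKM, which differed by less than their SD. Kcnc2 with 130 ± 23 RPKM and Tac1 with 125 ± 35 RPKM were likewise not apart, and neither were Nefh with 52.4 ± 7.6 RPKM and Pthlh with 47.5 ± 11.5 RPKM. Kcnc1 followed with 21.3 ± 2.7 RPKM and Syt2 with 3.4 ± 0.8 RPKM. At 15 min (n = 4) Pvalb had 705 ± 128 RPKM and Cplx1 676 ± 120 RPKM, and Kcnc1 with 19.5 ± 3.7 RPKM and Syt2 with 2.6 ± 0.9 RPKM were again the lowest. Kcnc2 had 139 ± 40 RPKM there, so that per length its transcripts outnumbered those of Kcnc1 in both sets.

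The comparison of the purified fraction with the lysate asks how far a transcript was concentrated on the tagged ribosomes. In the Pvalb line all 8 genes rose in both sets. Their purified libraries all lay above the lysates, as did those of 1.87% of the genes tested at 15 min and 3.98% at 60 min. By edgeR's quasi-likelihood test, adjusted after Benjamini and Hochberg over all genes, 21.3% of 17179 genes were called higher at 15 min and 28% of 17167 at 60 min, and 45.6% and 60.4% changed in either direction. The members' median log2 fold change was 2.82 at 15 min and 3.22 at 60 min, against −0.15 and −0.13 over all genes tested. Pvalb stood at rank 19 of all genes at 15 min and at rank 11 at 60 min, and the lowest member, Cplx1, at ranks 740 and 429.

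Pvalb itself had the largest fold change of the members. It had a median of 815.7 CPM (612.0 to 1103) in the 16 purified libraries at 60 min, against 18.5 CPM (11.8 to 24.7) in the 16 lysates, a log2 fold change of 5.75 ± 0.13 (SE, adjusted p = 2.5e-26). At 15 min the log2 fold change was 5.47 ± 0.29 (adjusted p = 2.65e-12). The peptide genes followed. Tac1 had a median of 379.2 CPM (209.1 to 634.3) in the purified fraction at 60 min, against 15.8 CPM (10.3 to 25.4) in the lysate, and its log2 fold changes were 4.72 ± 0.19 at 60 min (adjusted p = 4.32e-20) and 4.15 ± 0.31 at 15 min (adjusted p = 2.78e-10). Pthlh had a median of 77.5 CPM (62.3 to 111.9) in the purified fraction at 60 min, against 4.16 CPM (1.85 to 11.7) in the lysate, with log2 fold changes of 4.41 ± 0.20 (adjusted p = 8.65e-19) and, at 15 min, 4.07 ± 0.43 (adjusted p = 3.77e-08).

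Among the channels, Kcnc2 was enriched further than Kcnc1. Kcnc2 had a median of 813.4 CPM (220.5 to 1181) in the purified fraction at 60 min, against 80.3 CPM (53.9 to 112.8) in the lysate, and log2 fold changes of 3.47 ± 0.19 (adjusted p = 1.76e-16) and, at 15 min, 3.15 ± 0.24 (adjusted p = 3.49e-10). Kcnc1 had a median of 226.0 CPM (179.0 to 327.3) in the purified fraction at 60 min, against 45.8 CPM (30.8 to 63.1) in the lysate, and log2 fold changes of 2.61 ± 0.09 (adjusted p = 5.35e-21) and, at 15 min, 2.28 ± 0.15 (adjusted p = 5.45e-11). The difference between the genes was not tested. Syt2, Nefh and Cplx1 had log2 fold changes of 2.98 ± 0.16, 2.65 ± 0.10 and 2.24 ± 0.09 at 60 min and of 2.49 ± 0.26, 2.04 ± 0.20 and 1.69 ± 0.19 at 15 min, the largest adjusted p of these 6 being 8.96e-08.

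Other genes of the same cells moved with the members, in lists that were chosen with earlier results of these data known. Of 12 further channel genes of fast-spiking cells, 11 rose and 0 fell at 60 min and 10 rose and 0 fell at 15 min, with median log2 fold changes of 1.59 and 1.55. They included Kcns3, a silent potassium channel subunit, at 3.18 ± 0.12 (adjusted p = 1.34e-20), and the axonal potassium channel genes Kcna2 at 2.07 ± 0.13 (adjusted p = 1.43e-15) and Kcna1 at 1.75 ± 0.11 (adjusted p = 1.5e-15), all at 60 min. Of 12 other parvalbumin class genes, 10 rose and 0 fell at 60 min, and 10 rose and 1 fell at 15 min, with medians of 2.97 and 2.27. Ank1, a membrane skeleton gene, rose by 4.26 ± 0.13 (adjusted p = 7.46e-23), the vesicle fusion gene Vamp1 by 2.99 ± 0.09 (adjusted p = 1.4e-22) and Lhx6, a transcription factor of these interneurons, by 2.96 ± 0.07 (adjusted p = 4.85e-25) at 60 min. The light neurofilament gene Nefl was the gene of that list that fell at 15 min, by 0.37 ± 0.08 on the log2 scale (adjusted p = 0.000609). Of markers of other cells at 60 min, 11 of 12 pyramidal, 8 of 8 astrocyte, 8 of 8 oligodendrocyte, 8 of 8 microglia and 8 of 8 genes of the Vip, Cck and neurogliaform interneuron classes fell. Other lists did not fall as a whole. Of the somatostatin neuron markers 6 of 7 rose, 3 of 8 endothelial genes rose and 2 fell, and 1 of the 6 tested thalamic and habenular genes rose and 4 fell. The general GABA neuron genes, which are not markers of other cells in this line, rose in 12 of 12 cases. The summed somatostatin markers were 2448 to 3476 CPM in purified shock libraries, against 450.7 to 774.8 CPM in shock lysates, and 1946 to 2524 CPM in purified home cage libraries, against 484.5 to 654.9 CPM in home cage lysates.

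In the Sst line fewer members were enriched, and unevenly between sets. At 15 min 7 of 8 rose, where 23.6% of 17075 genes rose and 44.5% changed, with Pvalb at a log2 fold change of 3.66 ± 0.53 (adjusted p = 8.37e-06), Tac1 at 2.97 ± 0.49 (adjusted p = 3.48e-05), Kcnc2 at 2.10 ± 0.29 (adjusted p = 3.87e-06) and Kcnc1 at 1.71 ± 0.23 (adjusted p = 3.93e-06). Syt2 was not called (0.38 ± 0.47, adjusted p = 0.534). Without the library that goes against its label 6 of 8 were called, where 44.03% of genes changed in either direction, and Pthlh was then not called (0.94 ± 0.42, adjusted p = 0.0738). Without shock replicates 4 and 5 and box replicate 2 7 of 8 were called, where 41.6% of 17304 genes were. At 60 min 4 of 8 rose, where 31.2% of 16878 genes rose and 59.4% changed: Nefh at 1.97 ± 0.26 (adjusted p = 2.98e-06), Pvalb at 1.75 ± 0.29 (adjusted p = 3.45e-05), Kcnc1 at 1.48 ± 0.20 (adjusted p = 3.16e-06) and Cplx1 at 1.21 ± 0.19 (adjusted p = 2.23e-05). Kcnc2 at 0.31 ± 0.34 (adjusted p = 0.455) and Tac1 at 0.83 ± 0.38 (adjusted p = 0.061) were not called there. Without the libraries labelled shock 5 of 8 were called, where 47.1% of 16561 genes were: Tac1 stood at 1.82 ± 0.52 (adjusted p = 0.00905) and Pvalb at 2.68 ± 0.40 (adjusted p = 0.000114), while Kcnc2 at 0.81 ± 0.44 (adjusted p = 0.14) was still not called. All 7 markers of somatostatin neurons rose at 15 min and 6 of 7 at 60 min, and the purified Sst fraction at 60 min also showed 5 of 12 pyramidal and 3 of 8 microglia markers above the lysate, with 5 pyramidal and 1 microglia marker below it.

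In the Camk2a line the peptide genes and Pvalb were depleted from the purified fraction. At 15 min 4 of 8 fell and 0 rose, where 27.8% of 15684 genes fell and 50.7% changed. At 60 min 4 of 8 fell and 0 rose, where 35.3% of 16519 genes fell and 57.5% changed. The members' median log2 fold change was −0.15 at 15 min and −0.34 at 60 min, close to the −0.14 and −0.26 over all genes tested. Pvalb had a median of 5.29 CPM (2.79 to 13.5) in the 12 purified libraries at 60 min, against 37.6 CPM (23.1 to 54.9) in the 12 lysates, and fell by 2.47 ± 0.21 on the log2 scale (adjusted p = 6.66e-10). At 15 min it fell by 1.28 ± 0.28 (adjusted p = 0.000786). Tac1 fell by 2.66 ± 0.30 at 60 min (adjusted p = 7.93e-08) and by 1.80 ± 0.29 at 15 min (adjusted p = 3.88e-05), and Pthlh by 2.99 ± 0.99 (adjusted p = 0.0126) and 2.34 ± 0.72 (adjusted p = 0.0101). The remaining calls were small, Nefh falling by 0.38 ± 0.15 at 60 min (adjusted p = 0.0326) and Kcnc2 by 0.35 ± 0.14 at 15 min (adjusted p = 0.0345). By log2 fold change Nefh stood at rank 8971 of 16519 genes and Kcnc2 at rank 9225 of 15684, near the middle of all genes. Kcnc1, Cplx1 and Syt2 were called in neither set, with log2 fold changes of 0.08 ± 0.12, −0.00 ± 0.09 and −0.14 ± 0.33 at 60 min. In the home cage libraries alone 0 of 8 members were called at 15 min and 2 at 60 min. These contrasts used fewer libraries. The share of all genes called in them is not given here, so these counts are not set against all genes.

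**Figure D2:**
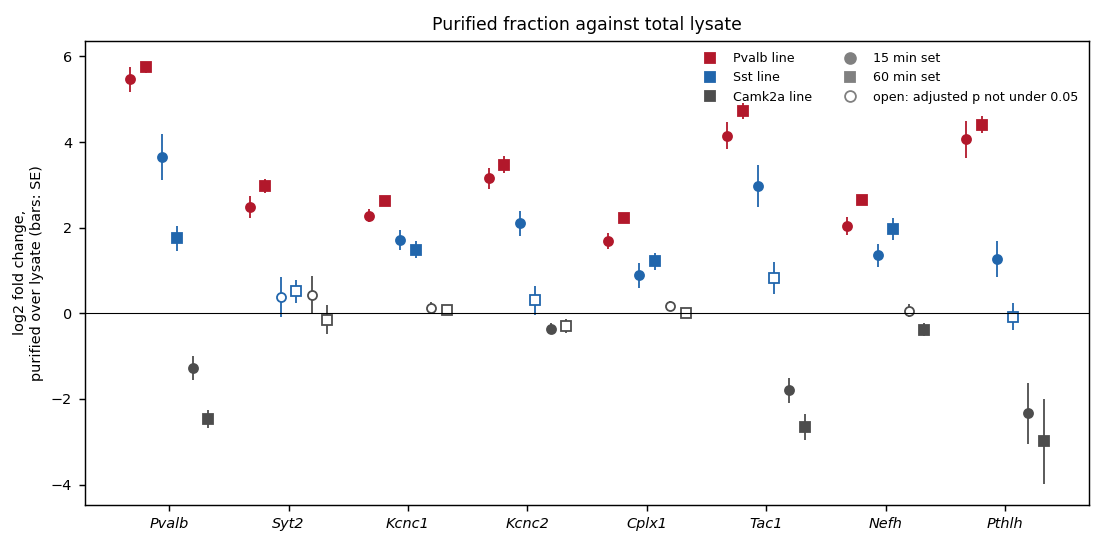
Log2 fold change of the purified fraction over the lysate for each gene, with SE bars, by line (colour) and set (circles 15 min, squares 60 min); open symbols have an adjusted p not under 0.05. The Pvalb line lies above 0 for all 8 genes, between 1.69 for Cplx1 at 15 min and 5.75 for Pvalb at 60 min, while Pvalb, Tac1 and Pthlh lie below 0 in the Camk2a line.

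Home cage animals of the 3 lines were compared directly in the purified fraction, where line and count table cannot be told apart. Against the Camk2a line all 8 genes were higher in the Pvalb line in both sets, where 9.09% of 16427 genes at 15 min and 27.1% of 17325 at 60 min were. At 60 min the log2 differences ran from 1.77 ± 0.22 for Cplx1 (adjusted p = 1.64e-08) to 7.74 ± 0.79 for Tac1 (adjusted p = 2.56e-10), with Pvalb at 6.62 ± 0.55 (adjusted p = 2.63e-12). Against the Sst line all 8 were higher in the Pvalb line at 60 min, where 20% of genes were. Pthlh had the largest of these differences, 3.75 ± 0.85 (adjusted p = 0.000463), followed by Syt2 at 2.76 ± 0.39 (adjusted p = 7.57e-07) and Kcnc2 at 2.60 ± 0.47 (adjusted p = 2.87e-05). Pvalb differed by 2.30 ± 0.40 (adjusted p = 1.82e-05) and Cplx1 by 0.85 ± 0.20 (adjusted p = 0.00053). Tac1 differed by 2.39 ± 0.54 (adjusted p = 0.000518). The estimates of Pthlh, Syt2, Kcnc2 and Tac1 exceeded that of Pvalb, the driver's own gene, and differences between genes were not tested.

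At 15 min 0 of 8 members differed between the Pvalb and Sst lines, where 0.0548% of 16427 genes (9) passed edgeR's test, 1710 had an unadjusted p under 0.05 and DESeq2 called 441. The Pvalb difference was 0.16 ± 0.79 (adjusted p = 0.996). Without the library that goes against its label it was 0.92 ± 0.85 (adjusted p = 0.756), and again 0 of 8 members passed, where 132 of 16387 genes did.

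In the lysates the gene of the driver was lower in the Pvalb line than in the others, a comparison chosen after the levels were seen. Pvalb mRNA averaged 19.1 ± 4.0 CPM (SD, n = 16) in lysates of the Pvalb line at 60 min, against 32.1 ± 10.8 CPM (n = 13) in those of the Sst line and 37.5 ± 8.1 CPM (n = 12) in those of the Camk2a line. At 15 min it averaged 18.8 ± 4.0 CPM (n = 12), against 31.6 ± 5.2 CPM (n = 12) and 32.8 ± 8.3 CPM (n = 10). The log2 difference from the Camk2a line was −0.99 ± 0.13 at 60 min (adjusted p = 2.21e-05), and Pvalb was the only member called, in a comparison that called 0.129% of 16272 genes (21). The other 7 members had log2 differences of −0.02 to 0.11 there. At 15 min the difference from the Camk2a line was −0.93 ± 0.12 (adjusted p = 3.92e-08), where 6 of 8 members and 61.5% of 15588 genes were called. From the Sst line it was −0.80 ± 0.11 at 15 min (adjusted p = 7.35e-06), where 2 members and 19.6% of genes were called, and −0.93 ± 0.13 at 60 min (adjusted p = 1.04e-06), where 7 members and 55.6% of genes were. With GC and length offsets the difference from the Sst line was −0.82 at 15 min, where 4 members and 22.3% of genes were called, and −0.66 at 60 min, where 4 members and 29.5% of genes were. Kcnc1, Cplx1 and Nefh changed sign with these offsets, to −0.28, −0.10 and −0.22 against the Sst line at 60 min and to −0.40, −0.39 and −0.37 against the Camk2a line at 15 min, where 5 members and 37.6% of genes were called. Without lysates 1 and 4 labelled shock of the Sst line the Sst line comparison at 60 min had 6 members called and 49.2% of genes. Line and count table cannot be told apart here either, and the sources used here do not describe how the Pvalb.Cre allele was built.

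**Figure D3:**
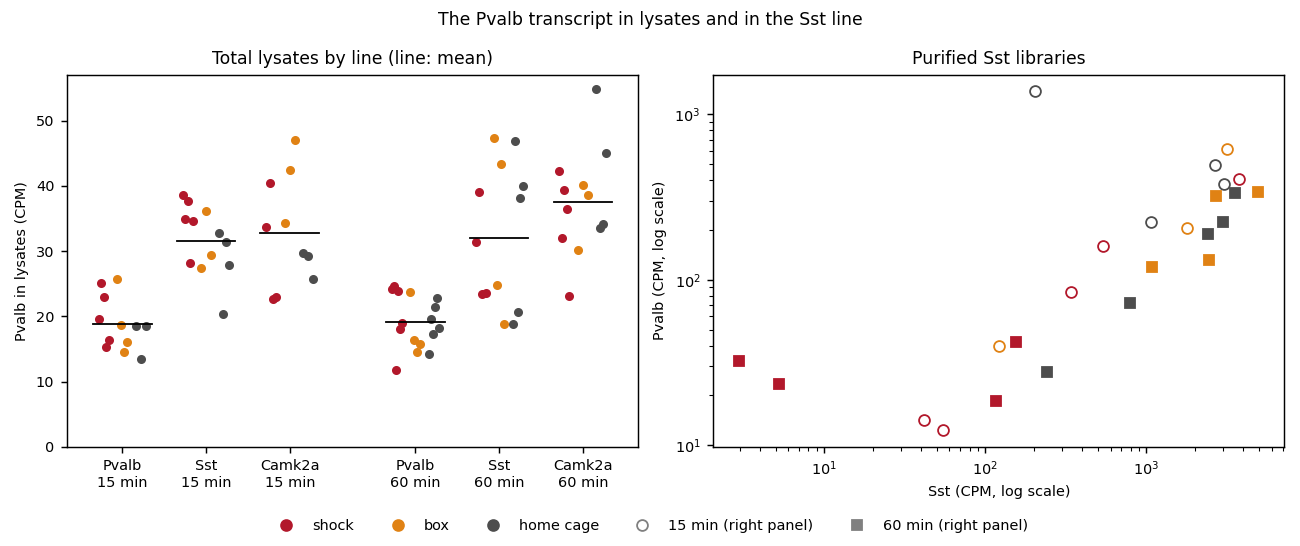
Left, CPM of Pvalb in every lysate by line and set, with means as lines; right, CPM of Pvalb against CPM of Sst in each purified library of the Sst line, on log scales, coloured by condition. Lysates of the Pvalb line reach 25.8 CPM at most; in the right panel the library labelled home cage replicate 2 at 15 min lies apart at 1378 CPM of Pvalb and 204.8 CPM of Sst, and the shock libraries reach 155.0 CPM of Sst at most at 60 min and lie as low as 41.8 CPM at 15 min.

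The next comparison asks whether shock or the new context changed these transcripts on the ribosomes of the Pvalb line. In the 60 min set, Nefh, Cplx1 and Kcnc1 rose after shock relative to the home cage by edgeR's test, and 0 of 8 members fell. Over all 16135 genes 19.7% rose and 15.3% fell, 35% together (5655 genes). DESeq2 called 4 members, Kcnc2 being the fourth and lower in shock, where it called 38.8% of 16704 genes. In refits that left out each of 12 libraries in turn these 3 members were called in all 12, Tac1 in 3, Kcnc2 in 2 and Pvalb in 1, with as many as 6 members called when shock replicate 1 or 2 was left out. The members' median log2 fold change was 0.20, against −0.06 over all genes.

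Nefh had 234.3 to 328.6 CPM in the 6 shock libraries (median 304.6), 215.7 to 243.3 CPM in the 4 box libraries and 179.9 to 266.0 CPM in the 6 home cage libraries (median 204.2). Its log2 fold change in shock over home cage was 0.47 ± 0.12 (adjusted p = 0.00627). Cplx1 had 1870 to 3429 CPM in the shock libraries (median 2510), 1841 to 2620 CPM in the box libraries and 1544 to 2035 CPM in the home cage libraries (median 1730), with a log2 fold change of 0.53 ± 0.14 (adjusted p = 0.00853). Kcnc1 had 225.3 to 327.3 CPM in the shock libraries (median 279.0), 205.8 to 226.8 CPM in the box libraries and 179.0 to 238.4 CPM in the home cage libraries (median 191.7), with a log2 fold change of 0.43 ± 0.13 (adjusted p = 0.0169). Shock and home cage libraries overlapped for all 3 genes, and the highest values were those of shock libraries.

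The other members were not called by edgeR. Pvalb had 762.5 to 1103 CPM in the shock libraries (median 987.7) and 612.0 to 902.1 CPM in the home cage libraries (median 780.7), a log2 fold change of 0.31 ± 0.13 (adjusted p = 0.0661). Kcnc2 had 220.5 to 996.3 CPM in the shock libraries (median 470.5) and 755.2 to 1181 CPM in the home cage libraries (median 936.6), a log2 fold change of −0.72 ± 0.29 (adjusted p = 0.061 by edgeR), while DESeq2 called it at −0.74 ± 0.30 (adjusted p = 0.0385). For Kcnc2, 4 of the 6 shock libraries lay below every home cage library, and shock replicates 1 and 2, with 996.3 and 865.1 CPM, lay within the home cage range. Tac1 had 209.1 to 396.3 CPM in the shock libraries (median 301.3) and 312.9 to 634.3 CPM in the home cage libraries (median 379.2), a log2 fold change of −0.49 ± 0.21 (adjusted p = 0.0693). Syt2 at 0.09 ± 0.19 (adjusted p = 0.765) and Pthlh at 0.02 ± 0.17 (adjusted p = 0.954) were close to 0. The 2 channel genes had estimates of opposite sign, of which edgeR called that of Kcnc1 and DESeq2 both.

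**Figure D4:**
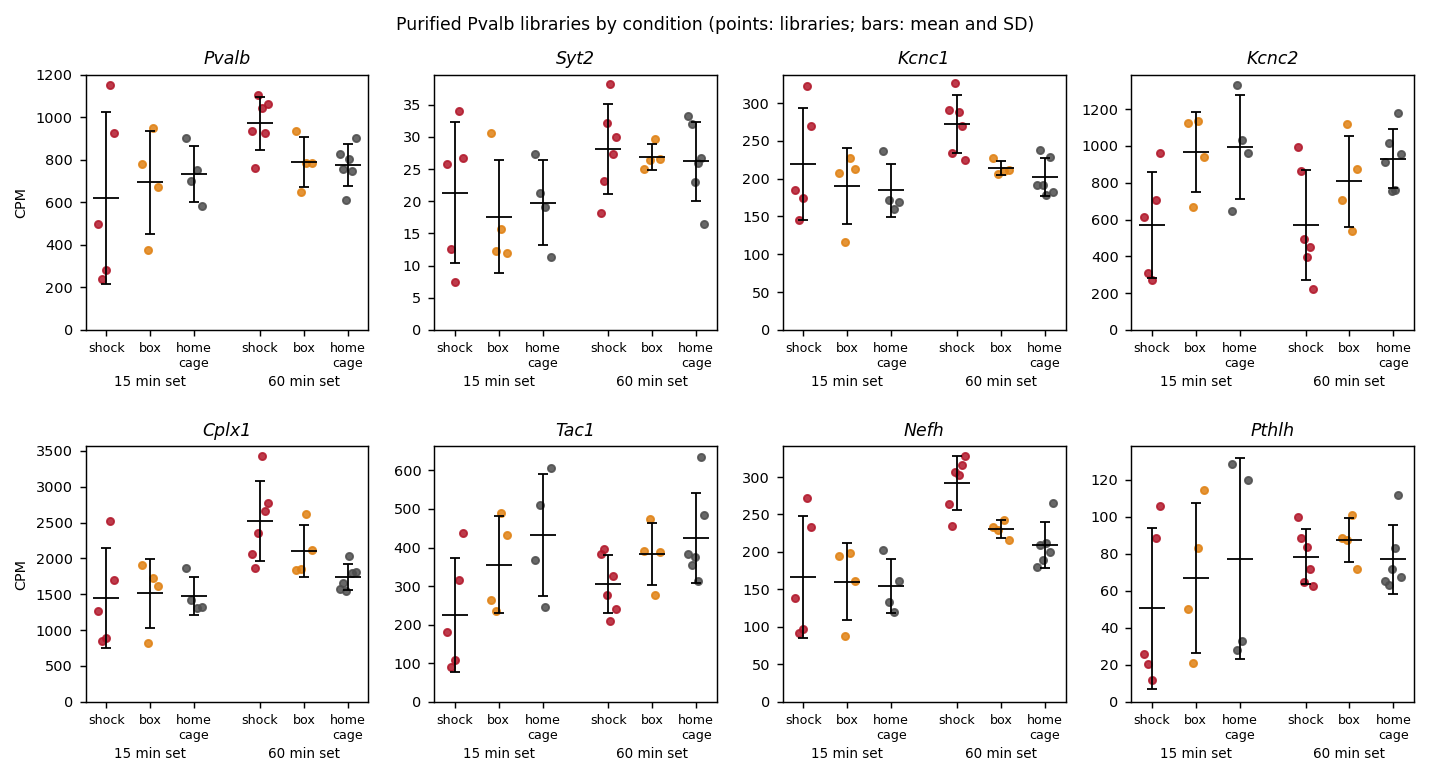
CPM of each gene in every purified library of the Pvalb line by condition (shock, box, home cage), 15 min set on the left and 60 min set on the right of each panel, with mean and SD. At 60 min Nefh, Cplx1 and Kcnc1 sit higher in shock than in home cage libraries, with some overlap, and the shock libraries at 15 min spread widely, for Pvalb from 238.1 to 1154 CPM.

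The calls at 60 min moved with the base composition of the transcripts. The longest transcripts of Nefh, Kcnc1 and Cplx1 had 58.4%, 57.4% and 56.0% of G and C, the highest of the members, and those of Tac1 and Kcnc2, whose estimates were the lowest, had 42.8% and 45.7%. Pvalb (49.3%), Syt2 (51.6%) and Pthlh (51.8%) lay between. Over all genes the median log2 fold change ran from −0.75 among 228 genes with 36 to 38% of G and C to 1.20 among 61 genes with 64 to 66%. Among genes with 56 to 58% it was 0.80, with 48.6% called higher, and among those with 58 to 60% it was 0.93, with 55.8% called higher, so the 3 risen members lay below the median of genes of like composition. Among genes with 42 to 44% the median was −0.61 and among those with 44 to 46% it was −0.49.

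The same trend set the libraries apart. The slope of a library's log2 CPM deviations over GC content, per 10 percentage points, averaged 0.47 ± 0.45 in the shock libraries (SD, n = 6, −0.13 to 0.86), −0.08 ± 0.32 in the box libraries (n = 4) and −0.42 ± 0.09 in the home cage libraries (n = 6, −0.58 to −0.32), and those of shock and home cage did not overlap. Shock replicates 1 and 2 had slopes of −0.08 and −0.13, and shock replicates 3 to 6 had slopes of 0.64 to 0.86. Replicates 1 and 2 were also the shock libraries within the home cage range of Kcnc2. GC and exon length offsets were also fitted for each library, to its own trend in the same counts. They take out any shock effect that follows GC content or length, which cannot be told apart here from a trend of other origin. In a fit with these offsets, 1 of 8 members was called, where 12.5% of genes were. Pvalb was then called, with a log2 fold change of 0.42 ± 0.12 (adjusted p = 0.024), and Nefh at −0.29 ± 0.14 (adjusted p = 0.198), Kcnc1 at −0.19 ± 0.15 (adjusted p = 0.477) and Cplx1 at −0.04 ± 0.11 (adjusted p = 0.878) were not. Kcnc2 at −0.37 ± 0.22 (adjusted p = 0.316) and Tac1 at 0.06 ± 0.14 (adjusted p = 0.86) were not called in either fit.

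**Figure D5:**
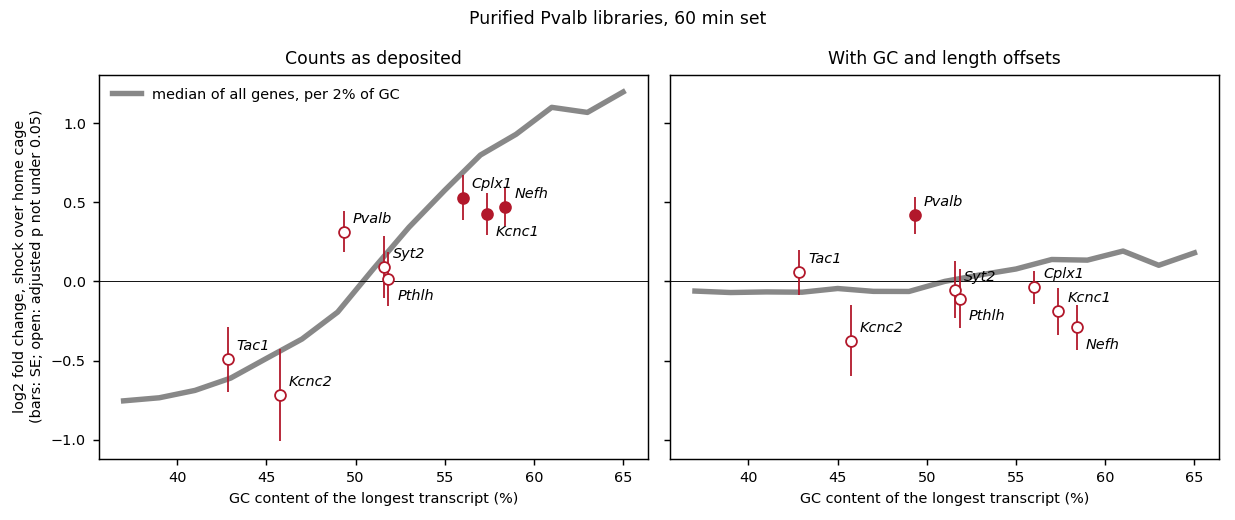
Log2 fold change in shock over home cage in purified Pvalb libraries at 60 min against the GC content of a gene's longest transcript, without (left) and with (right) GC and length offsets; the grey line is the median of all genes per 2% of GC and points are the 8 genes with SE bars, open where not called. On the left the grey line climbs from −0.75 to 1.20 and the members follow its direction. On the right the offsets flatten the grey line by construction, to between −0.07 and 0.19, and Pvalb alone is called.

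Markers of other cells, and Gad1 of GABA neurons in general, also moved between these groups. Sst averaged 692.2 ± 142.6 CPM in the shock libraries and 334.4 ± 100.8 CPM in the home cage libraries (SD, n = 6 each), Slc17a7, the vesicular glutamate transporter of pyramidal cells, 319.1 ± 100.7 and 173.3 ± 31.5 CPM, and Gad1, the GABA-synthesising enzyme, 2471 ± 728 and 3289 ± 496 CPM. The summed level of 7 somatostatin neuron markers was 2448 to 3476 CPM in shock and 1946 to 2524 CPM in home cage libraries, that of 12 pyramidal markers 1189 to 1914 and 1008 to 1415 CPM, and that of 8 astrocyte markers 1960 to 2412 and 2081 to 2872 CPM. With the markers of other cell classes as a covariate 5 members were called, Kcnc2 (−0.71, adjusted p = 0.00418) and Tac1 (−0.40, adjusted p = 0.0314) in addition to the 3, where 37.2% of genes were. Of the 12 further channel genes 5 rose and 1 fell, among them the calcium channel gene Cacna1a (1.03 ± 0.18, adjusted p = 0.000606) and the sodium channel gene Scn1a (−0.63 ± 0.20, adjusted p = 0.019). Of the 12 other parvalbumin class genes 3 rose and 1 fell, among them Cox6a2, a mitochondrial respiratory subunit (1.39 ± 0.22, adjusted p = 0.000594), and the transcription factor gene Sox6 (−0.71 ± 0.19, adjusted p = 0.00773). These calls of both lists are from the fit without covariate or offsets, where 3179 of 16135 genes rose and 2476 fell. The base composition of the listed genes was not taken into account.

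The new context alone gave no call in this set. For box against home cage 0 of 8 members and 0 of 16135 genes (0%) were called by edgeR, where 1829 genes had an unadjusted p under 0.05 and DESeq2 called 42. For shock against box 0 of 8 members and 0 genes (0%) were called by edgeR, where 3306 genes and 3 members had an unadjusted p under 0.05 and DESeq2 called 592. The estimates for shock against box were 0.36 ± 0.14 for Nefh (adjusted p = 0.183) and 0.32 for Pvalb (adjusted p = 0.22).

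At 15 min 0 of 8 members and 0 of 15484 genes (0%) were called by edgeR in any comparison of conditions in the purified Pvalb line. In shock against home cage 2413 genes had an unadjusted p under 0.05 and DESeq2 called 322. The same numbers were 260 and 67 in box against home cage and 2411 and 509 in shock against box. Pvalb had 497.2, 238.1, 280.8, 1154 and 925.6 CPM in the 5 shock libraries, against 902.8, 702.2, 749.7 and 581.2 CPM in the 4 home cage libraries. Tac1 had 180.1, 89.0, 107.8, 315.1 and 437.5 CPM in the shock libraries, against 367.8, 509.9, 245.4 and 606.6 CPM in the home cage libraries. Shock replicates 2 and 3 were lowest for both genes, and for Pvalb replicates 4 and 5 lay above every home cage library. The log2 fold changes were −0.99 ± 0.46 for Tac1 (adjusted p = 0.311) and −0.87 ± 0.37 for Kcnc2 (adjusted p = 0.292). The summed level of 12 GABAergic markers ran from 1782 to 5369 CPM in these shock libraries and from 4607 to 5826 CPM in the home cage libraries, and that of 12 pyramidal markers from 854.9 to 3725 CPM and from 993.4 to 1707 CPM. With the markers of other cell classes, which include the pyramidal but not the GABAergic ones, as a covariate 0 of 8 members and 0.0517% of genes were called for shock against home cage. The part of the GABAergic markers was not tested.

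Differences between responses were tested as interactions. In the response to shock over home cage at 60 min, the Pvalb line exceeded the Camk2a line for Cplx1, by 0.87 ± 0.28 (adjusted p = 0.0143), and for Kcnc1, by 0.73 ± 0.26 (adjusted p = 0.0271). These were 2 of 8 members, in a comparison that called 20.8% of 17325 genes higher and 37.6% in either direction. Nefh at 0.85 ± 0.40 and Kcnc2 at −1.38 ± 0.64 did not pass (adjusted p = 0.0867 for each). With GC and length offsets 0 of 8 members passed, where 14.4% of genes did, and the value for Kcnc1 was −0.20. Leaving out a library left 1 to 3 members called. Between the purified fraction and the lysate of the Pvalb line 0 of 8 responses differed at 60 min, where 20.4% of 17167 genes did, and 0 of 8 at 15 min, where 0 of 17179 genes (0%) did, 1333 had an unadjusted p under 0.05 and DESeq2 called 242. Between the 60 min and 15 min responses 0 of 8 members and 0 of 16642 genes (0%) differed, with 1531 at an unadjusted p under 0.05 and 264 by DESeq2. In home cage animals the sets themselves differed for 0 of 8 members and for 0.391% of 16642 genes.

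In the purified Camk2a line edgeR called 0 of 8 members in any comparison of conditions. At 60 min 2.3% of 14673 genes were called for shock against home cage (1.66% higher). For the box comparisons edgeR called 0%, with 294 genes at an unadjusted p under 0.05 and 16 by DESeq2 in box against home cage, and 2214 and 115 in shock against box. Cplx1 had 367.2, 331.6, 409.9, 324.5 and 371.7 CPM in the 5 shock libraries, 491.4, 534.1 and 496.4 CPM in the 3 box libraries and 441.0, 504.9, 469.3 and 479.1 CPM in the 4 home cage libraries. The shock libraries lay below all others, and how many of all genes did so was not counted. The log2 fold change in shock over home cage was −0.34 ± 0.13 (adjusted p = 0.106). With GC and length offsets it was 0.0020 (adjusted p = 0.998), where 0.00682% of genes were called. The GC slope, defined as for the Pvalb line, ran from −0.68 to 0.03 in these shock libraries and from 0.15 to 0.45 in the home cage libraries, without overlap. DESeq2 called Cplx1 in shock against home cage (−0.33 ± 0.10, adjusted p = 0.00929) and against box (−0.43 ± 0.10, adjusted p = 0.0135), and Kcnc2 in shock against home cage (0.71 ± 0.25, adjusted p = 0.0281), where it called 20.9% of 10144 genes against home cage and 1.47% of 7830 against box. At 15 min 0 of 14542 genes (0%) were called in any comparison by edgeR, with 1288 at an unadjusted p under 0.05 and 84 calls of DESeq2 in shock against home cage. These numbers were 397 and 40 in box against home cage and 1336 and 32 in shock against box.

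In the purified Sst line at 60 min Pvalb was low in the libraries labelled shock, in which the Sst gene was low too. Pvalb had 32.4, 18.5, 42.0 and 23.3 CPM in the libraries labelled shock, 339.0, 118.8, 131.5 and 323.5 CPM in the box libraries and 72.5, 189.6, 27.6, 223.9 and 334.1 CPM in the home cage libraries. It fell by 2.66 ± 0.65 on the log2 scale in shock relative to home cage (adjusted p = 0.0369), where 2.15% of 16301 genes fell and 4.49% changed, and was the only member called by edgeR with its own scaling. DESeq2 called Pvalb (adjusted p = 0.000161), Cplx1 (adjusted p = 0.00448) and Tac1 (adjusted p = 0.00547), where it called 13.6% of 14736 genes, and edgeR with DESeq2's size factors called Cplx1 too (adjusted p = 0.0457). Relative to box, Pvalb fell in shock by 3.13 ± 0.68 (adjusted p = 0.0191) and Cplx1 by 1.46 ± 0.33 (adjusted p = 0.0226), where 4.56% of genes fell and 8.18% changed, and DESeq2 called Tac1 as well (adjusted p = 0.00253), with 16.4% of 15848 genes. Cplx1 had 558.2, 370.5, 592.4 and 509.8 CPM in the libraries labelled shock and 1591, 839.1, 1184 and 1407 CPM in the box libraries, with no overlap. How many of all genes separated likewise was not counted. For box against home cage 0 of 8 members and 0 genes (0%) were called by edgeR, with 79 at an unadjusted p under 0.05 and 0 by DESeq2.

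Markers of somatostatin neurons and of other cells moved between the same groups. The summed level of 7 somatostatin neuron markers was 189 to 494 CPM in the libraries labelled shock, 2250 to 10360 CPM in the box libraries and 446 to 8111 CPM in the home cage libraries, and that of 8 oligodendrocyte markers was 7221 to 11130, 2834 to 4704 and 2392 to 5607 CPM. That of 8 astrocyte markers was 5206 to 5433, 2010 to 3788 and 1653 to 3955 CPM. The purified libraries labelled shock lay at the levels of the lysates in several of these values: over the lysates of the set the oligodendrocyte sum was 8537 to 12170 CPM, the astrocyte sum 4678 to 5942 CPM and Pvalb 18.9 to 47.4 CPM. The sum of 12 general GABA neuron genes was lower, at 661.9 to 955.4 CPM in them, against 1171 to 2208 CPM in the lysates. The calls also rested on few libraries. Leaving out each of the 9 libraries in turn left 0 to 3 members called for shock against home cage, and leaving out each of 8 left 0 to 2 for shock against box. Without shock replicates 1 and 4 0 of 8 members were called in either comparison, where 0.0536% and 0.0596% of 16787 genes were, and Pvalb stood at −2.54 ± 0.91 against home cage (adjusted p = 0.269) and −3.01 ± 0.95 against box (adjusted p = 0.157). With the markers of other cell classes, somatostatin neurons not among them, as a covariate, Pvalb stood at −1.51 ± 0.38 against home cage (adjusted p = 0.0424) and −1.95 ± 0.39 against box (adjusted p = 0.019). Cplx1 then stood at −0.66 ± 0.17 (adjusted p = 0.0438) and −0.85 ± 0.18 (adjusted p = 0.0249), in fits that called 4.44% and 4.27% of genes. Tac1 stood at −0.95 ± 0.53 against home cage with the covariate (adjusted p = 0.333), against −2.56 ± 0.85 without it (adjusted p = 0.101). The part of the somatostatin neuron markers in these calls was not tested.

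At 15 min in the Sst line 0 of 8 members were called for shock against home cage by edgeR, where 1.21% of 16046 genes were. All 8 estimates were negative, 7 of 8 members had an unadjusted p under 0.05, where 21.8% of genes did, and DESeq2 called 3 (Kcnc2, Tac1 and Pthlh), where it called 11.6% of 16049 genes. Kcnc2 had 230.5, 174.3, 172.1, 42.5 and 87.7 CPM in the 5 shock libraries, against 325.6, 789.4, 480.4 and 358.5 CPM in the 4 home cage libraries, and Tac1 had 110.4, 45.2, 52.1, 2.82 and 6.17 CPM, against 223.1, 425.1, 152.0 and 163.5 CPM. Neither gene's groups overlapped, and how many of all genes separated likewise was not counted. Shock replicates 4 and 5, the lowest for both genes, were those with 41.8 and 54.7 CPM of Sst, and the summed level of 7 somatostatin neuron markers was 134 to 8203 CPM in the shock libraries and 1960 to 7009 CPM in the home cage libraries. The log2 fold changes were −1.93 ± 0.57 for Kcnc2 (adjusted p = 0.0937) and −2.60 ± 0.91 for Tac1 (adjusted p = 0.13). The summed level of 8 microglia markers was 66.5 to 4529 CPM in these shock libraries and 72.2 to 105.6 CPM in the home cage libraries, and that of 12 pyramidal markers was 4051 to 7361 and 745.9 to 3245 CPM. Without the library that goes against its label the estimates were −1.61 ± 0.60 for Kcnc2 (adjusted p = 0.219) and −2.17 ± 0.96 for Tac1 (adjusted p = 0.284), and 0 of 15945 genes (0%) were called. Without shock replicates 4 and 5 and box replicate 2 they were −1.44 ± 0.42 for Kcnc2 (adjusted p = 0.357) and −1.88 ± 0.51 for Tac1 (adjusted p = 0.311), and 0 of 16215 genes (0%) were called. With the markers of other cell classes as a covariate they were −0.53 ± 0.68 for Kcnc2 (adjusted p = 0.803) and −0.58 ± 1.0 for Tac1 (adjusted p = 0.863), and 0% of genes were called.

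The lysates, pooled over lines with line as a covariate, gave 0 of 8 members in any comparison of conditions, by edgeR and by DESeq2. Over all genes edgeR called 0.128% of 15588 for shock against home cage at 15 min, 0.0128% for box against home cage and 0% for shock against box. At 60 min it called 0 of 16272 (0%) in each, with 536, 205 and 145 genes at an unadjusted p under 0.05 and 22, 16 and 22 by DESeq2. Without lysates 1 and 4 labelled shock of the Sst line edgeR again called 0 members and 0 of 16265 genes (0%).

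Over the means of the 36 groups the genes most like Pvalb in log2 CPM were Kcns3 (Pearson r = 0.968), Fam43a (0.966), Vamp1 (0.963), Rab3b (0.962), Slc32a1 (0.962), Ubash3b (0.961), Mxra7 (0.957) and Cav3 (0.953), among 12562 genes compared. The points share lines, libraries and depth, and no test was made. Of the members Tac1 was closest, at rank 7 (r = 0.960), then Nefh at rank 53 (0.904), Cplx1 at 62 (0.896), Kcnc1 at 68 (0.888), Kcnc2 at 69 (0.887) and Pthlh at 78 (0.882). Syt2 was the least alike, at rank 240 (r = 0.809). Cplx1 and Nefh each had 2 other members among their 5 closest genes, Syt2 had 1, and the rest had 0.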

How the data were processed

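The authors deposited raw read counts per gene symbol in 6 tables, each with both fractions of a line and set. The submitters' processing notes name STAR 2.7.7a, featureCounts, DESeq2 and GRCm38 without their roles. Per the labels' protocols, polyA RNA went into unstranded Nextera XT libraries. Groups came from the labels, where the series speaks of biological replicates, and a p-value covers the spread between those samples. Among 151 count columns, 3 matched a group but no single sample and entered without a number, and 2 labelled samples were not analysed here. No pair of libraries within a group agreed within sampling noise (smallest reduced chi-square 20.6).

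The counts were fitted in R 4.3.3 by edgeR 4.0.16 (filterByExpr, TMM, robust quasi-likelihood fits) with Benjamini-Hochberg adjustment over all genes of a comparison and a threshold of 0.05. Standard errors are log2 fold changes over the root of the F value. CPM used every count a library lists, and log2 CPM a prior count of 2. Conditions were compared within the purified libraries of a table, enrichment over all libraries of a table, lysates and differences of line or set over the libraries concerned. Coordinates, exon lengths and GC content (of the longest transcript) came from GENCODE M21 on GRCm38, matched by symbol for 92.9% of 25103 gene names. The fits were tested on simulated counts, with shock against home cage simulated: in purified Pvalb libraries at 60 min the test called 67.7% of 4-fold and 36.4% of 2-fold changes, and in purified Sst libraries at 15 min 22.2% and 1%. The simulations changed only a small part of the genes and held no trend over GC content. These shares therefore do not give the power of the real comparisons. Alternatives were DESeq2 1.42.0, its size factors in edgeR, no filter on low counts, the replicate number as a block, GC and length offsets, markers of other cell classes as a covariate, and leaving out libraries, some of them chosen after their Sst levels were seen.

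The members and gene lists were chosen with earlier results of these data known. All 8 members were named in every comparison, up to 3 genes with the smallest p per direction of each list, the 2 most abundant markers of a class, and the 8 genes most like Pvalb. Which of these were printed was chosen after their values were seen.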

Additional observations from a re-analysis of the deposited data

Results flagged for a closer look

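Of 216 combinations of a member and a group of 4 to 6 libraries, 13 held a library far from the rest of its group, where chance gives about 1 in 20. Values of purified libraries were as follows. In the Camk2a line at 60 min, home cage replicate 2 had 13.5 CPM of Pvalb (others 4.55 to 5.93), shock replicate 2 had 47.5 CPM of Kcnc1 (others 28.7 to 33.3) and shock replicate 5 had 1.25 CPM of Pthlh (others 0 to 0.0386). In the Pvalb line at 15 min, home cage replicate 1 had 236.4 CPM of Kcnc1 (others 160.3 to 171.9). In the Sst line at 15 min, shock replicate 1 stood above the other 4 shock libraries for 3 members, with 7.93 CPM of Syt2 (others 0.313 to 1.30), 130.9 CPM of Kcnc1 (others 36.3 to 51.7) and 1773 CPM of Cplx1 (others 307.3 to 513.5).

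Values of lysates were as follows. In the Camk2a line at 15 min, shock replicate 1 had 4.78 CPM of Syt2 (others 1.86 to 2.13). In the Pvalb line at 15 min, box replicate 2 had 176.6 CPM of Kcnc2 (others 86.6 to 92.2) and box replicate 1 had 65.9 CPM of Nefh (others 37.5 to 41.1), and at 60 min home cage replicate 4 had 25.4 CPM of Tac1 (others 11.7 to 15.8). In the Sst line at 15 min, home cage replicate 4 had 123.4 CPM of Kcnc2 (others 80.7 to 87.7) and 31.9 CPM of Tac1 (others 14.3 to 16.6).

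Responses to shock over home cage at 60 min differed between the purified Pvalb and Camk2a lines for Kcnc1, by 0.73 on the log2 scale (0.43 in the Pvalb line and −0.29 in the Camk2a line), and for Cplx1, by 0.87 (0.53 and −0.34), in the test of the difference itself with edgeR. Purified libraries lay above every lysate in the Pvalb line and below every lysate in the Camk2a line for Tac1 at 15 min (log2 fold changes 4.15 and −1.80), Pthlh at 15 min (4.07 and −2.34), Pvalb at 60 min (5.75 and −2.47), Tac1 at 60 min (4.72 and −2.66) and Pthlh at 60 min (4.41 and −2.99). Between these lines the difference of the enrichments was not tested. The share of all genes above every lysate in the Pvalb line is given above, and that below every lysate in the Camk2a line is not given here. These cases are therefore not set against all genes.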

How the results depend on the processing

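Over all alternatives, 1453 values of single members kept their direction and their side of the threshold, 71 lost a call, 40 gained one and 13 changed sign. The 8 members were called as enriched in the Pvalb line in both sets under every alternative run. With GC and length offsets, 1 member in place of 3 was called in the purified Pvalb line at 60 min for shock against home cage, with signs changed for Kcnc1 (−0.19), Cplx1 (−0.038), Tac1 (0.058) and Nefh (−0.29). The difference of responses between the Pvalb and Camk2a lines then had 0 called (2 in the main test, Kcnc1 −0.20), and Cplx1 in the purified Camk2a line at 60 min stood at 0.0020. In lysates of the Pvalb against the Camk2a line at 15 min the same offsets gave Kcnc1 −0.40, Cplx1 −0.39 and Nefh −0.37, and against the Sst line 4 members were called at 15 min (2 in the main test) and 4 at 60 min (7), with Kcnc1 −0.28, Cplx1 −0.10 and Nefh −0.22. DESeq2 called 2 members in the purified Camk2a line at 60 min for shock against home cage (0) and 1 for shock against box (0), and in the purified Sst line 3 for shock against home cage at 15 min (0) and at 60 min (1). DESeq2's size factors in edgeR gave 2 in the last of these, and markers of other classes as a covariate gave 2 there and 5 in the purified Pvalb line at 60 min. In home cage libraries alone, enrichment in the Camk2a line had 0 called at 15 min and 2 at 60 min (4 each). Without shock replicates 1 and 4, chosen after their Sst levels were seen, 0 members were called in the purified Sst line at 60 min for shock against home cage (1) and against box (2), with fewer samples in the fit. The cause of the other changes was not tested. Another scaling moved the median of all genes by over 0.1 in places, by −0.14 for enrichment in the Sst line at 60 min with DESeq2's size factors and by −0.14 for the Pvalb against the Camk2a line at 60 min with GC offsets.

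Same-numbered libraries did not deviate together throughout, with correlations of −0.17 to 0.63 between conditions in the purified Pvalb line and −0.71 to 0.77 in the purified Sst line at 60 min (median 0.41, against −0.23 between different numbers). Purified and lysate libraries of one number and condition had median correlations of 0.27 (Camk2a line), 0.28 (Pvalb) and 0.11 (Sst) at 15 min. Different numbers gave −0.16, −0.08 and −0.03. At 60 min the medians were 0.15, −0.08 and −0.18, against −0.10, 0.01 and 0.23. With a replicate block, 2 members were called in the purified Pvalb line for shock against home cage at 60 min (3), 5 for enrichment in the Sst line at 15 min (7, without Cplx1 at 0.62, adjusted p = 0.0896, and Pthlh at 0.88, adjusted p = 0.0937) and 0 in the purified Sst line at 60 min for that comparison (1). No other count of called members moved with the block, but in the difference of responses between the Pvalb and Camk2a lines Kcnc1 lost its call (adjusted p = 0.0766) and Pthlh gained one (5.58, adjusted p = 0.0205), in edgeR's test.

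Leaving out libraries in turn gave 3 to 6 called members in the purified Pvalb line at 60 min for shock against home cage, the largest counts coming in the absence of shock replicate 1 or 2, and 0 to 1 for shock against box (1 without shock replicate 2). The difference between the purified and lysate responses gave 0 to 3 (without shock replicate 1 or 2). The difference from the Camk2a response gave 1 to 3, moving without Camk2a home cage replicates 1 and 3, Camk2a shock replicates 1 and 4 and Pvalb shock replicate 3. The purified Camk2a line at 60 min gave 0 to 2 (without shock replicate 3). The purified Sst line gave 0 to 2 for shock against home cage at 15 min (without shock replicate 1), 0 to 3 at 60 min (moving without any of the 9 libraries) and 0 to 2 for shock against box (without box replicates 1 and 4 and shock replicates 2 and 4). Enrichment of Kcnc2 in the Sst line at 60 min ran from −0.066, without box replicate 1, to 0.45. With 0 counts in 3 of 10 purified Camk2a libraries at 15 min and in 7 of 12 at 60 min, the fold changes of Pthlh there rest on few counts.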
